A study of Arabidopsis thaliana with 12 samples.

Results

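The genes described here are the 54 nuclear genes of Arabidopsis thaliana that encode the light-harvesting antennae and subunits of both photosystems, and the carriers that pass electrons between them and on to NADP+, out of 36061 named genes in the count table. They were chosen by name and function, with earlier results of these data known, and comprise 6 genes of the photosystem I antenna (LHCA), 15 of the photosystem II antenna (LHCB), 13 photosystem I subunits (PSA), 13 photosystem II subunits (PSB) and 7 electron transport genes, namely the plastocyanins *PETE1* and *PETE2*, the ferredoxins *FD1* and *FD2*, the ferredoxin-NADP+ reductases *FNR1* and *FNR2*, and the Rieske iron-sulfur protein *PETC* of the cytochrome b6f complex. Messenger RNA was sequenced from rosette leaves of Columbia-0 wild type (WT) and of plants that carried *MtPHD6*, a gene for a PHD finger protein of Medicago truncatula. Plants were watered (WT-control, PHD6-control) or had water withheld (WT-drought, PHD6-drought), with 3 biological replicates in each of the 4 groups. The transgenic plants were homozygous and of the T3 generation. The line that each library came from and the promoter that drove the transgene are not given in the sources used here. The sample records give 10 days of drought, also for the watered groups, while the paper describes a shorter period. The comparisons with drought show how these genes stood in leaves that had lost water supply, and those between genotypes show how they stood in plants with and without the transgene.

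Light is captured by chlorophyll bound to LHCA and LHCB proteins and passed to the reaction centres. Photosystem II withdraws electrons from water, and these move through the cytochrome b6f complex, plastocyanin, photosystem I and ferredoxin to the reductase that makes NADPH. The cores of both photosystems are encoded in the chloroplast genome, while the antennae and many outer subunits are encoded in the nucleus, and transcripts of these nuclear genes are among the most abundant in leaves.

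The libraries held 17839925 to 24717357 counts over named genes. Markers of leaf mesophyll (*RBCS1A*, *RCA* and *CA1*) summed to 16007 to 29111 CPM (counts scaled to a common library size, after TMM normalization, and given as kCPM where plotted as sums), while 3 root markers reached at most 0.40 CPM and 3 seed markers at most 0.38 CPM in any library. The 3 flower markers (*AP3*, *PI* and *AG*) ranged from 1.03 to 8.28 CPM. PHD6-control replicate 3 correlated best with WT-drought replicate 1 (r = 0.987 across genes, against 0.982 within its group), and WT-control replicate 3 with PHD6-control replicate 2 (0.981 against 0.980).

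These genes formed a large share of the leaf transcriptome. Together they took between 8.65 and 13.0% of all counts in a library, with 11.8 ± 1.34% in WT-control, 11.1 ± 0.53% in WT-drought, 11.1 ± 0.51% in PHD6-control and 9.66 ± 0.92% in PHD6-drought (SD, n = 3 libraries each). In leaf RNA, fewer cells of a type and less transcript in each cell cannot be told apart. Of the 100 genes with the highest level per kilobase of exon, 38 belonged to this set, as did 25 of the 50 genes with the most counts.

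Levels within the set spanned a wide range, here as CPM per kilobase of exon averaged over the 4 groups. *LHCB1.3* (AT1G29930), which encodes a major chlorophyll a/b protein of the trimeric photosystem II antenna, was the highest of all genes at 16781 CPM per kilobase. The highest photosystem II subunit was *PSBR*, a small protein of the oxygen-evolving side, at 6250. The highest photosystem I subunit was *PSAO*, which takes part in docking of the mobile antenna, at 3537. *LHCA4*, a red-shifted chlorophyll protein of photosystem I, stood at 2728, and *PETE2*, the more abundant of the plastocyanins, led the electron carriers at 2569. At the low end, *LHCB4.3* had 60.3 and *LHCB7*, a rarely expressed antenna protein, 8.55. Per library, *LHCB1.3* had 24591, 16904 and 21793 CPM in WT-control, 21314, 19349 and 21123 in WT-drought, 23640, 22639 and 20693 in PHD6-control and 15493, 20648 and 19498 in PHD6-drought (replicates 1, 2 and 3 throughout). All 4 groups of *LHCB1.3* overlapped, apart from PHD6-drought and PHD6-control, whose nearest libraries were 20648 and 20693. *PSBR*, in the same order of groups, had 5905, 4671 and 5315 CPM, then 4840, 4553 and 5045, then 5551, 5430 and 4943, and last 3685, 4552 and 4313. *PSAO* had 3601, 2720 and 3299 CPM in WT-control, 2987, 2643 and 2978 in WT-drought, 3163, 3239 and 2919 in PHD6-control and 2018, 2732 and 2458 in PHD6-drought. *LHCA4* had 4322, 3276 and 3592, then 4099, 3590 and 4288, then 3541, 3226 and 3406, and 2492, 3358 and 3208 CPM. In each of these genes replicate 1 of PHD6-drought was the lowest of the 12 libraries.

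*LHCB1.5* (AT2G34420) was listed at 0 counts in all 12 libraries. It encodes another copy of the major photosystem II antenna protein and lies on chromosome 2 from 14522524 to 14523568 (TAIR10.1, minus strand). An annotated gene on the opposite strand, *AT2G08665*, spans all of its 1045 bases and was also at 0, while *LHCB1.4* next to it on the plus strand held 28233 to 61728 counts per library. The strand setting of the counting is not given in the sources used here, so *LHCB1.5* is listed at 0 without a level, and the 53 other members were tested. Of the 54 genes, 19 overlap another annotated gene, 17 of them one on the opposite strand and 3 one on the same strand, and reads from the shared bases may be missing or misassigned. *FD1* is among the latter. Stretches of 120 bases shared with exons of another gene, each read on its own strand, were found only between *LHCB2.1* and *LHCB2.2* (5.36 and 6.74% of their windows of that length) and between *LHCB1.4* and *LHCB1.5* (0.251 and 0.324%), and reads from them could be split between the copies. Stretches shared in the reverse direction were not searched.

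**Figure D1:**
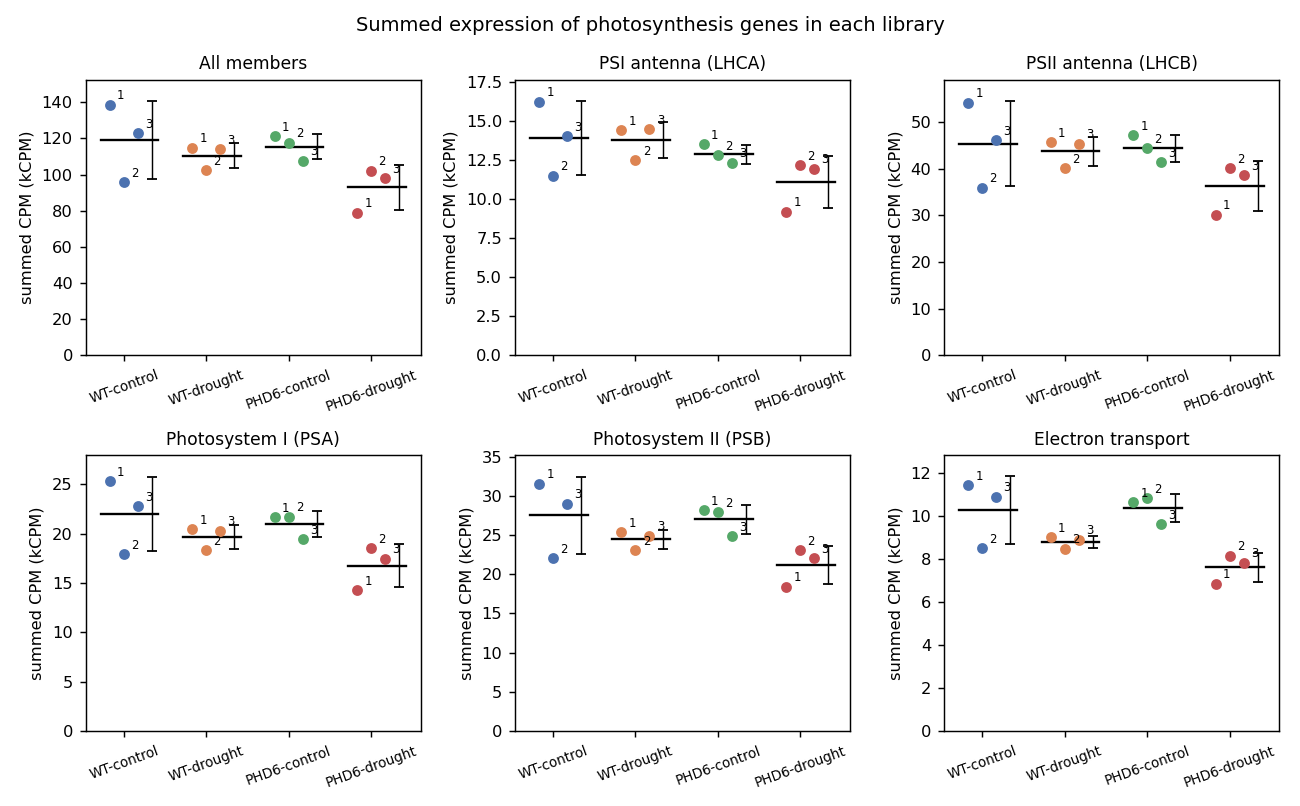
Summed expression of the set and of its 5 groups of genes in the 12 libraries, in kCPM after TMM normalization on axes that start at 0. Points are libraries with their replicate number, long bars are group means and error bars SD (n = 3). All 3 PHD6-drought libraries lay below all PHD6-control libraries in every panel, and WT-control replicate 2 lay far below the other WT-control libraries.

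Summed over the 54 genes, expression was 119136 ± 21653 CPM in WT-control, 110445 ± 6943 in WT-drought, 115526 ± 7076 in PHD6-control and 92945 ± 12345 in PHD6-drought (SD, n = 3). PHD6-drought stood at 0.80 of the level of PHD6-control and at 0.84 of that of WT-drought, in both cases without overlap between libraries. Against WT-drought the nearest libraries were close, at 102051 and 102446 CPM. In that comparison the sums of LHCB, PSA and PSB overlapped, while those of LHCA and the electron carriers did not. WT-drought stood at 0.93 of WT-control and PHD6-control at 0.97 of WT-control, and these groups overlapped. The ratio of PHD6-drought to PHD6-control was lowest for the electron carriers (0.73), followed by PSB (0.79), PSA (0.80), LHCB (0.82) and LHCA (0.86). For drought in WT plants the order was similar in part, with 0.86 for electron carriers, 0.89 for PSB and PSA, 0.96 for LHCB and 0.99 for LHCA, all with overlap. These sums were described and not tested.

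The genes moved together between replicates of the same group. In WT-control all 53 tested genes were lowest in replicate 2, in WT-drought 52 were lowest in replicate 2, in PHD6-control 46 were lowest in replicate 3, and in PHD6-drought 52 were lowest in replicate 1. Summed expression was thus 95866 CPM in WT-control replicate 2 against 138691 in the highest WT-control library, and 78894 in PHD6-drought replicate 1 against 102051 in the highest of its group. Summed mesophyll markers moved the same way, with 18691 CPM in WT-control replicate 2 against 29111 and 27414 in replicates 1 and 3. In PHD6-drought they had 16007 CPM in replicate 1 against 19792 and 18902 in replicates 2 and 3. There *RBCS1A* and *RCA* were lowest in replicate 1, but *CA1* was highest, at 1295 CPM against 1221 and 912.8. Summed markers of guard cells (*KAT1*, *FAMA* and *MYB60*) and phloem companion cells (*SUC2*, *AHA3* and *FTIP1*) were also lowest of their group in these libraries. Summed epidermis markers (*ATML1*, *PDF1* and *PDF2*) were highest of their group there, at 604.9 and 483.9 CPM. These sums followed *PDF1*, at 320.8 and 256.1 CPM. *ATML1* and *PDF2* were lowest of their group in WT-control replicate 2. In PHD6-drought replicate 1 *PDF2* was lowest and *ATML1* highest of the group. Flower markers summed to 8.28 CPM in WT-control replicate 2 and 5.94 CPM in PHD6-drought replicate 1, but also to 6.22 and 7.82 CPM in PHD6-control replicates 2 and 3, against 1.03 to 2.44 in the other 8 libraries. Their part in the results was not tested.

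**Figure D2:**
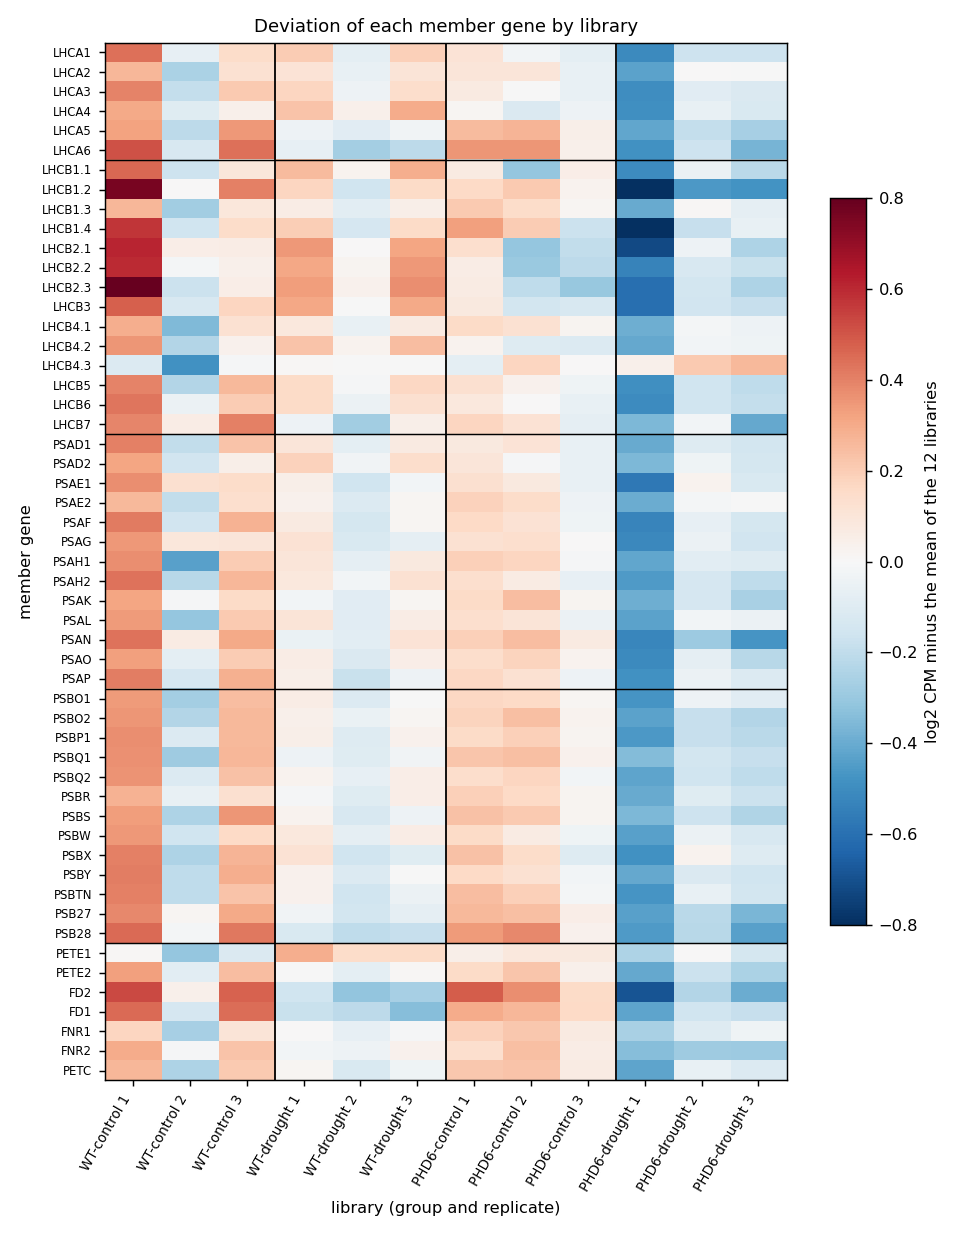
Each cell shows the log2 CPM of a gene in a library minus its mean over the 12 libraries, with libraries in columns and the 53 tested genes in rows, grouped by complex; the colour scale ends at 0.8 in either direction, and values beyond it take the end colour. Columns change as blocks, with WT-control replicate 2 below replicates 1 and 3 for all 53 genes and PHD6-drought replicate 1 lowest in its group for 52.

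Drought in WT plants lowered 3 of 53 genes and raised none at an adjusted p under 0.05 from edgeR, which is 5.66%, against 7.18% of all 19681 genes tested that were called lower and 12.2% that were called higher. DESeq2 called 6 lower, against 7.66%. The median log2 fold change was -0.14, against -0.01 over all genes, and 46 of 53 values were negative. The 3 were both ferredoxins, the soluble carriers that take electrons from photosystem I, and *PSB28*, a protein that joins photosystem II during its assembly. *FD2* (AT1G60950), the main leaf ferredoxin, on chromosome 1 from 22444307 to 22445291, had 1998, 1426 and 1925 CPM in WT-control and 1242, 1113 and 1150 CPM in WT-drought. The groups did not overlap, although WT-control replicate 2 lay nearer to the drought libraries than its group did. The log2 fold change was -0.61 ± 0.15 (SE, edgeR adjusted p = 0.0214). *FD1* (AT1G10960), the minor leaf ferredoxin, on chromosome 1 from 3664187 to 3665040, had 367, 245 and 367 CPM in WT-control and 238, 233 and 213 CPM in WT-drought. Its groups were separated only by the gap between 238 and 245 CPM. The log2 fold change was -0.52 ± 0.15 (SE, edgeR adjusted p = 0.0445). *PSB28* (AT4G28660), on chromosome 4 from 14149849 to 14151163, had 193, 139 and 189 CPM in WT-control and 129, 123 and 124 CPM in WT-drought. The drought libraries agreed closely with each other and lay below all WT-control libraries, with a log2 fold change of -0.47 ± 0.12 (SE, edgeR adjusted p = 0.0280).

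Regions just upstream of these genes are shown for a pair that moved together with drought in both genotypes, since *FD2* holds none of the 5 short motifs searched and *PSB28* holds a G-box. Each is the 250 bases before the annotated start in TAIR10.1 (RefSeq), 5′ to 3′ on the strand of the gene, in lower case with matches in capitals. The motifs were CACGTG (the G-box, bound by bZIP and bHLH factors of light and abscisic acid responses), ACGTG (the core of the abscisic acid response element, which every G-box contains), GATAAG (the I-box of light-regulated genes), CCAATC and AAAATATCT (the evening element), on both strands. *FD2* is read from chr1:22444057-22444306 and *PSB28* from chr4:14149599-14149848, both on the plus strand.
FD2: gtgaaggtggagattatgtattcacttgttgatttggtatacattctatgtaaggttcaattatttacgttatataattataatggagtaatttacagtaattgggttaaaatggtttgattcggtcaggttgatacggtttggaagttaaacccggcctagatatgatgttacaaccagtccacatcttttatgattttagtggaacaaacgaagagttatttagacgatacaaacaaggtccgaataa
PSB28: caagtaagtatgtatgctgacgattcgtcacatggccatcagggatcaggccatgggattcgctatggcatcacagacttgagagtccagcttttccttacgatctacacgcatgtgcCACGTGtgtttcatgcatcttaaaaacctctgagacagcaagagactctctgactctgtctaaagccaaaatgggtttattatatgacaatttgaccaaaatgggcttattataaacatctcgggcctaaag
A match of letters is a description of the sequence and does not show that a factor binds there.

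How many genes drought lowered in WT plants depended on single libraries. Without WT-control replicate 2, the library in which all 53 genes were lowest, 30 genes were called lower and 1 higher, *PETE1*, against 12% of all genes called lower. Without WT-control replicate 3, or without any of the 3 WT-drought libraries, none was called lower. Of all genes, 3.34 to 4.46% were called lower in these runs. WT libraries of the same replicate number deviated together, and with replicate numbers as a block 5 genes were lower (*FD1*, *FD2*, *LHCA6*, *LHCB7* and *PSB28*) and *PETE1* was higher. That run called 8.31% of all genes lower.

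**Figure D3:**
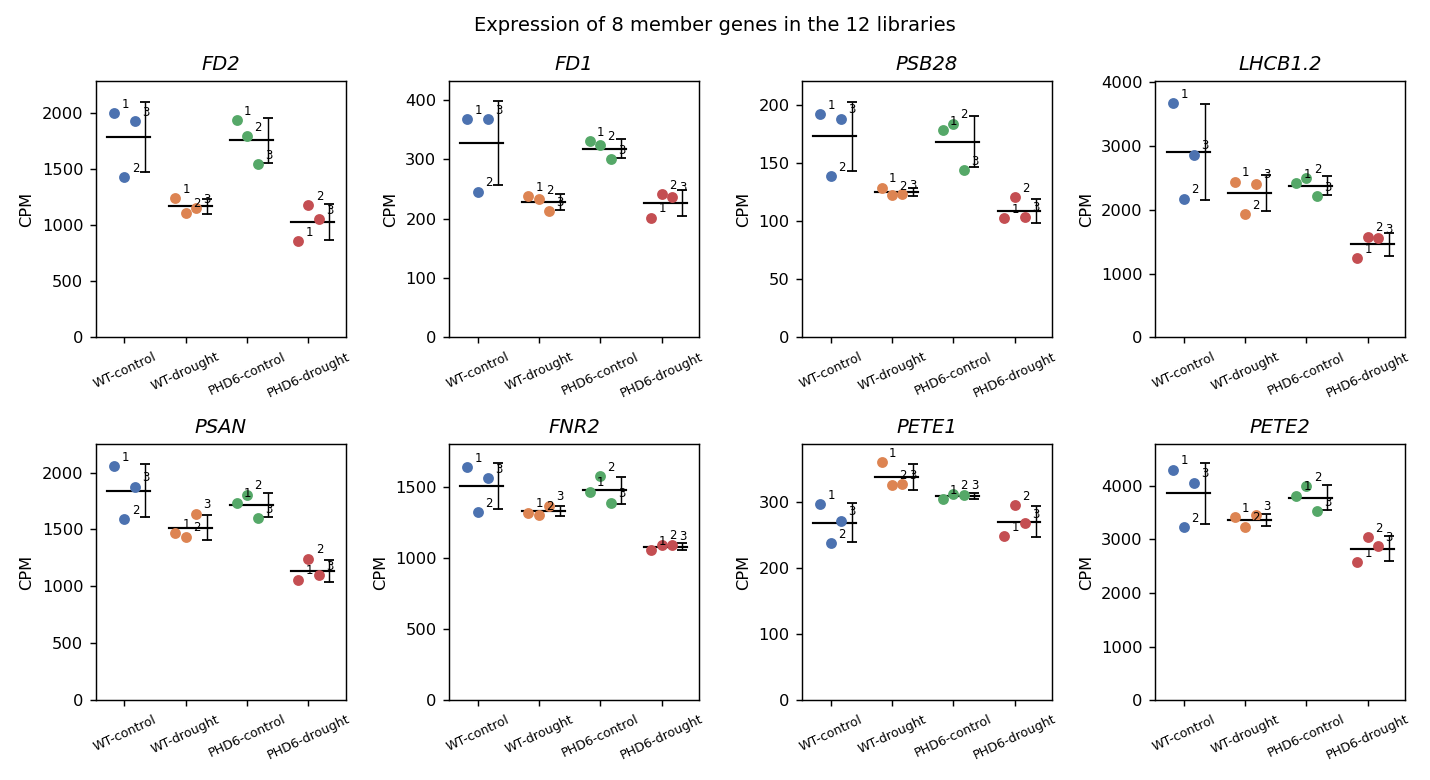
Expression of 8 genes in each library, in TMM-normalized CPM on axes that start at 0, with points as libraries (replicate number beside each), long bars as group means and error bars as SD (n = 3). *FD2* lay between 857 and 1242 CPM in all 6 drought libraries and between 1426 and 1998 in all 6 watered ones, while *PETE1* was highest in WT-drought, at 325 to 359 CPM.

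Drought in *MtPHD6* plants lowered 19 of 53 genes and raised none, 35.9%, against 12.7% of all genes tested that were called lower and 9.49% that were called higher. The median log2 fold change was -0.31, against 0.02 over all genes, and 52 of 53 values were negative, *LHCB4.3* being the exception at 0.14. By group, 6 of 7 electron transport genes, 8 of 13 PSB genes, 2 of 6 LHCA genes, 2 of 13 PSA genes and 1 of 14 tested LHCB genes fell. The 3 genes that fell in WT plants were among the 19. The mesophyll markers were also lower, at 16007 to 19792 CPM in PHD6-drought against 23236 to 26639 CPM in PHD6-control, with a median log2 fold change of -0.41 and *RCA* and *CA1* called (2 of 3). Their part in the result was not tested. With DESeq2, 29 of the 53 fell, against 13.2% of all genes. Leaving out 1 library at a time gave 9 to 23, with 9 without PHD6-control replicate 1 or replicate 2, and 11 without PHD6-drought replicate 3. Of all genes, 6.44, 6.64 and 7.98% were called lower without these libraries.

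Among the electron carriers, *FD2* had the largest fall. It had 1937, 1796 and 1543 CPM in PHD6-control and 857, 1179 and 1054 CPM in PHD6-drought. All 3 drought libraries lay well below the watered ones, and the log2 fold change was -0.77 ± 0.13 (SE, edgeR adjusted p = 0.00619). *FD1* followed, with 330, 323 and 300 CPM in PHD6-control, 201, 241 and 237 CPM in PHD6-drought and a log2 fold change of -0.49 ± 0.09 (SE, adjusted p = 0.00761). *FNR2* (AT1G20020), a reductase that transfers electrons from ferredoxin to NADP+, on chromosome 1 from 6942625 to 6945091, had 1469, 1577 and 1390 CPM in PHD6-control and 1055, 1096 and 1092 CPM in PHD6-drought, a log2 fold change of -0.45 ± 0.08 (SE, adjusted p = 0.00654). Both groups of *FNR2* were narrow and lay far apart. Its paralog *FNR1* had 1218, 1241 and 1123 CPM against 893, 996 and 1044 CPM, with a log2 fold change of -0.29 (adjusted p = 0.0457), and *PETC* fell with a log2 fold change of -0.36 (adjusted p = 0.0456). The call of *FNR1* was made in 7 of 15 alternative analyses and that of *PETC* in 9.

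The plastocyanins carry electrons from cytochrome b6f to photosystem I in the thylakoid lumen. *PETE2* had 4299, 3225 and 4058 CPM in WT-control, 3411, 3239 and 3448 in WT-drought, 3816, 3999 and 3530 in PHD6-control and 2581, 3040 and 2873 in PHD6-drought. It fell in *MtPHD6* plants with drought, with a log2 fold change of -0.42 ± 0.09 (SE, edgeR adjusted p = 0.0168), and had -0.20 (adjusted p = 0.421) in WT plants. *PETE1* (AT1G76100), on chromosome 1 from 28553883 to 28554930, had 296, 237 and 271 CPM in WT-control, 359, 325 and 326 in WT-drought, 304, 311 and 310 in PHD6-control and 248, 295 and 267 in PHD6-drought. All WT-drought libraries were above all WT-control libraries, and all PHD6-drought libraries were below all PHD6-control libraries. The log2 fold change with drought was 0.33 ± 0.10 (SE, adjusted p = 0.0555) in WT plants and -0.19 ± 0.08 (SE, adjusted p = 0.127) in *MtPHD6* plants. The first value passed the threshold in 6 of 15 alternatives. The interaction test over all 12 libraries gave a difference of -0.52 ± 0.13 between these responses (SE, edgeR adjusted p = 0.0267), called in 12 of 20 alternatives. It was not called without WT-control replicate 3, WT-drought replicate 1, any PHD6-control library, or PHD6-drought replicate 1 or 3, nor with replicate numbers as a block. *PETE1* was the only member that passed this test, 1 of 53 or 1.89%, against 5.6% of all genes called for a negative difference. Of the summed CPM per kilobase of exon of both genes, *PETE1* made up 8.23 ± 0.37% in WT-control, 11.4 ± 0.54% in WT-drought, 9.51 ± 0.56% in PHD6-control and 10.9 ± 0.21% in PHD6-drought (SD, n = 3). In both genotypes this share was thus higher with drought in every library than in any watered library of the same genotype.

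Of the photosystem II subunits, 8 of 13 fell. *PSB28* had 179, 184 and 144 CPM in PHD6-control and 103, 121 and 104 CPM in PHD6-drought, a log2 fold change of -0.63 ± 0.11 (SE, edgeR adjusted p = 0.00679). *PSB27* (AT1G03600), a lumenal protein that acts in assembly and repair of photosystem II, on chromosome 1 from 898480 to 899794, fell with a log2 fold change of -0.52 ± 0.09 (SE, adjusted p = 0.00610). The groups did not overlap for either gene. *PSBS*, the sensor of lumen acidity that starts the dissipation of excess light as heat, had -0.41 (adjusted p = 0.0146), *PSBP1*, an extrinsic protein of the water-splitting site, -0.41 (adjusted p = 0.0224), *PSBQ1* and *PSBQ2*, which help retain calcium and chloride there, -0.39 and -0.36 (adjusted p = 0.0202 and 0.0331), and *PSBR* -0.34 (adjusted p = 0.0469). PSBO encodes the manganese-stabilizing protein and its copies differed in call. *PSBO2*, the minor copy, had 1079, 1126 and 972 CPM in PHD6-control and 708, 839 and 810 CPM in PHD6-drought, a log2 fold change of -0.43 ± 0.09 (SE, adjusted p = 0.0148). *PSBO1* had 4343, 4325 and 3915 CPM against 2794, 3763 and 3643 CPM, with -0.30 ± 0.12 (SE, adjusted p = 0.113). By CPM per kilobase of exon, the share of *PSBO2* in the pair was 22.3 ± 0.48% in PHD6-control and 20.9 ± 1.25% in PHD6-drought. These overlapped, so a difference between the copies was not shown. The other 5 PSB genes, among them *PSBW*, *PSBX* and *PSBY*, had values between -0.26 and -0.36 and did not pass.

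In the antennae, most genes did not pass, and the 3 that fell were *LHCB1.2*, *LHCA5* and *LHCA6*. *LHCB1.2* (AT1G29910), a further copy of the major antenna protein, on chromosome 1 from 10472280 to 10473502, had 2423, 2500 and 2211 CPM in PHD6-control and 1244, 1578 and 1555 CPM in PHD6-drought. The libraries of the groups were far apart, with a log2 fold change of -0.70 ± 0.11 (SE, edgeR adjusted p = 0.00422). *LHCA5* and *LHCA6* are minor proteins that in Arabidopsis link the chloroplast NADH dehydrogenase-like (NDH) complex to photosystem I rather than serving as bulk antenna. *LHCA6* had 224, 224 and 180 CPM in PHD6-control and 126, 157 and 135 CPM in PHD6-drought, a log2 fold change of -0.59 ± 0.11 (SE, adjusted p = 0.00948). *LHCA5* had 179, 181 and 155 CPM against 112, 131 and 125 CPM, with -0.48 ± 0.09 (SE, adjusted p = 0.00863). By contrast, the bulk antenna genes *LHCA1* to *LHCA4* had log2 fold changes between -0.17 and -0.28 with adjusted p from 0.113 to 0.355. Approximate normal intervals from the SE ran from -0.50 to -0.06 for *LHCA1* and from -0.40 to 0.07 for *LHCA4*. They were not adjusted for the number of genes tested and are too narrow for so few libraries. No test compared *LHCA1* to *LHCA4* with *LHCA5* or *LHCA6*. In WT plants *LHCA6* had 250, 160 and 238 CPM in WT-control and 168, 146 and 152 CPM in WT-drought with a log2 difference of -0.48 (adjusted p = 0.0660), which passed in 6 of 15 alternatives.

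Among photosystem I subunits, *PSAN* and *PSAK* fell. *PSAN* (AT5G64040), a lumenal subunit that helps plastocyanin to dock, on chromosome 5 from 25628521 to 25629708, had 1736, 1805 and 1596 CPM in PHD6-control and 1058, 1243 and 1098 CPM in PHD6-drought, a log2 fold change of -0.59 ± 0.09 (SE, edgeR adjusted p = 0.00422). *PSAK*, a membrane subunit next to the antenna, had -0.40 ± 0.10 (SE, adjusted p = 0.0226). The remaining 11, which include PSAD, PSAE and *PSAF* of the plastocyanin and ferredoxin docking sites, lay between -0.18 and -0.37. *PSAO* came nearest to passing (adjusted p = 0.0548).

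Of the 19 calls, 9 were made in each of the 15 alternatives run, those of *FD1*, *FD2*, *FNR2*, *LHCA5*, *LHCA6*, *LHCB1.2*, *PSAN*, *PSB27* and *PSB28*. Among them, *LHCA5*, *LHCA6*, *PSB27*, *PSB28* and *FD1* belonged to the 9 tested genes with the lowest level per kilobase.

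**Figure D4:**
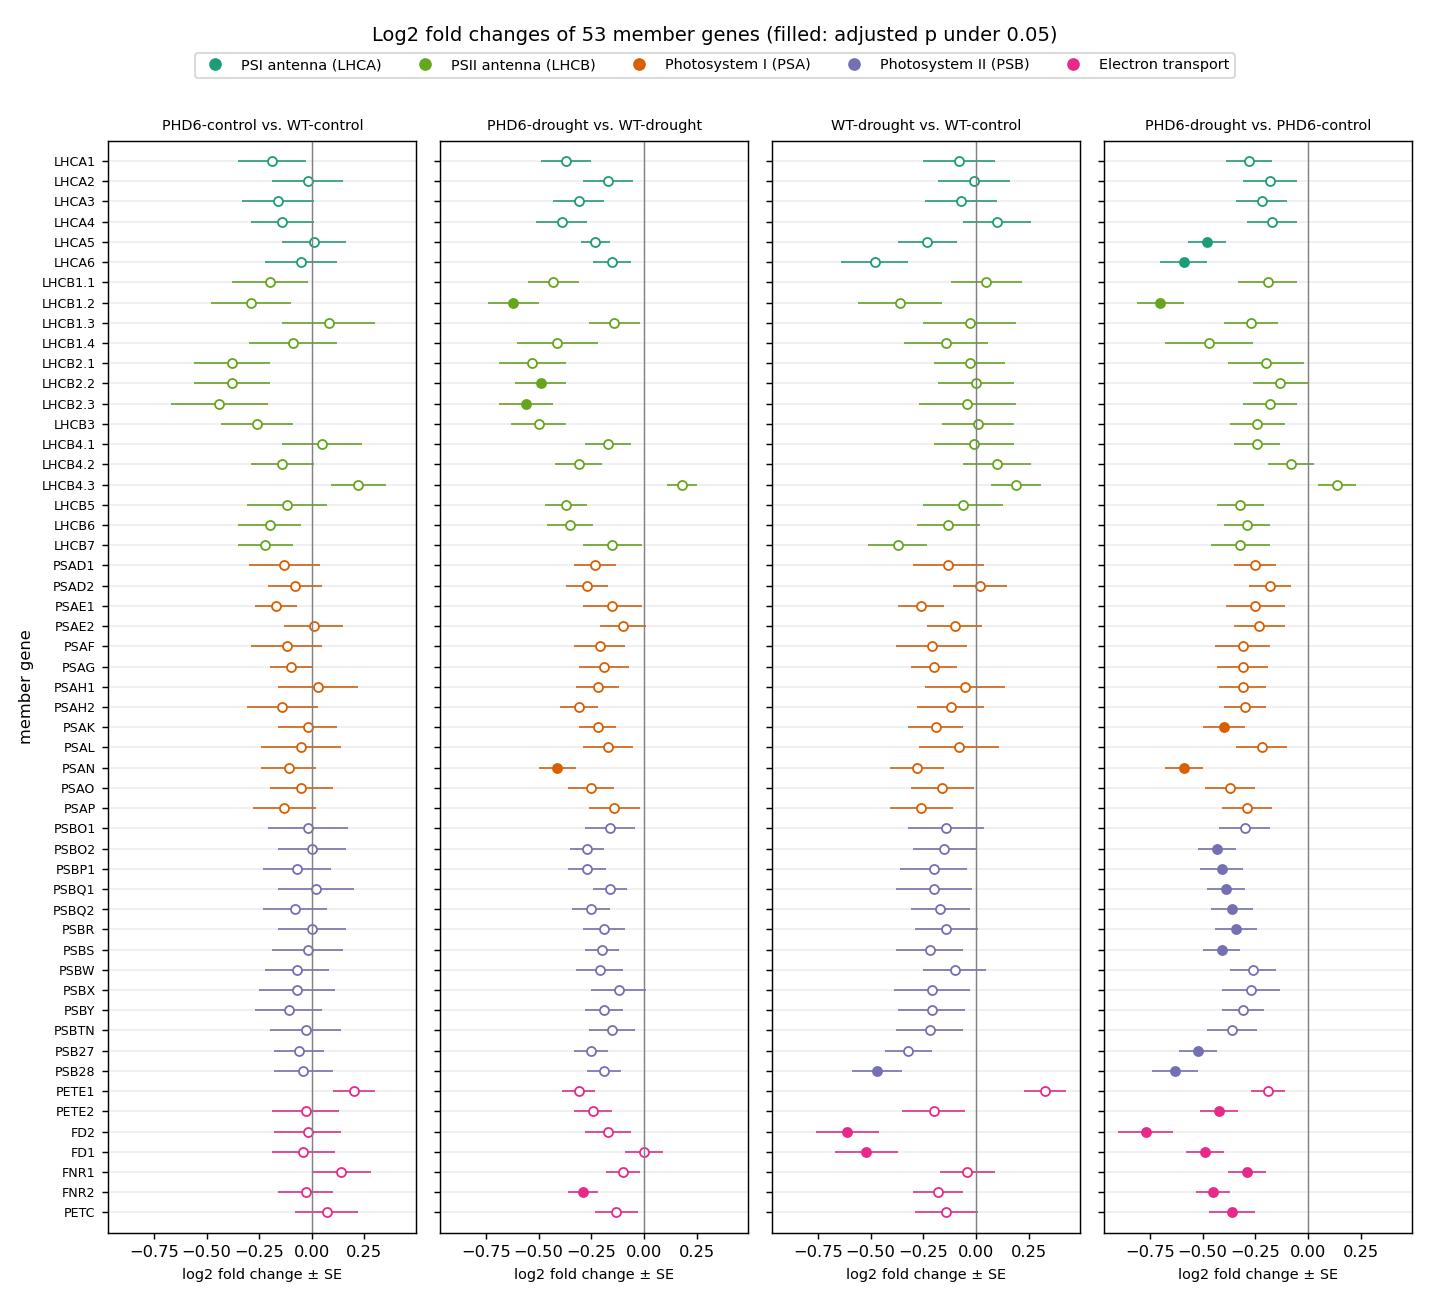
Log2 fold changes of the 53 tested genes in 4 comparisons with their standard errors, coloured by complex, where filled points have an adjusted p under 0.05 from edgeR. In watered plants no point is filled, while for drought in *MtPHD6* plants 52 of 53 values lie left of 0 and 19 are filled.

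The transgene in watered plants gave no call in either direction. The median log2 fold change was -0.07, against -0.02 over all genes, with values from -0.44 (*LHCB2.3*) to 0.22 (*LHCB4.3*). None of the 53 had an unadjusted p under 0.05 in edgeR, which 18.1% of all genes had, none passed with DESeq2, which called 1.37% of all genes lower, and edgeR called 4.98% of all genes, 4.26% higher and 0.722% lower. The lowest adjusted p was 0.311. The median standard error was 0.16 for these genes and 0.13 over all genes tested. *PETE1* was the only gene whose groups did not overlap, with 304 to 311 CPM in PHD6-control and 237 to 296 CPM in WT-control and a log2 fold change of 0.20, and 24.4% of all genes had such groups.

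Under drought, *MtPHD6* plants had lower levels than WT plants of 5 genes and higher levels of none, 9.43%, against 3.89% of all genes called lower and 2.65% called higher. The median was -0.22, against 0.01 over all genes, and 51 of 53 values were negative. The 5 were *LHCB1.2*, *LHCB2.2*, *LHCB2.3*, *PSAN* and *FNR2*, so that 3 of them belonged to the trimeric antenna of photosystem II. *LHCB1.2* had 2443, 1936 and 2412 CPM in WT-drought, above the 1244 to 1578 CPM of PHD6-drought, with a log2 fold change of -0.62 ± 0.12 (SE, edgeR adjusted p = 0.0213). LHCB2 proteins are among those phosphorylated when antenna moves between the photosystems. *LHCB2.2* (AT2G05070), on chromosome 2 from 1799234 to 1800472, had 838, 687 and 862 CPM in WT-drought and 468, 620 and 598 CPM in PHD6-drought, with -0.49 ± 0.12 (SE, adjusted p = 0.0470). *LHCB2.3* (AT3G27690), on chromosome 3 from 10255906 to 10257489, had 197, 160 and 202 CPM in WT-drought and 103, 141 and 132 CPM in PHD6-drought, with -0.56 ± 0.13 (SE, adjusted p = 0.0340). *LHCB2.1* had a like value, -0.53 ± 0.16 (SE), that did not pass (adjusted p = 0.0836). Neither *LHCB2.2* nor *LHCB2.3* was called with drought in *MtPHD6* plants, where their values were -0.13 and -0.18. In watered plants the means of *LHCB2.1*, *LHCB2.2* and *LHCB2.3* were also lower, at 636, 614 and 142 CPM in PHD6-control. WT-control had 826, 796 and 192 CPM, with overlap between libraries and no call. *PSAN* had 1468, 1435 and 1639 CPM in WT-drought and differed on the log2 scale by -0.41 ± 0.09 (SE, adjusted p = 0.0313). *FNR2* had 1319, 1301 and 1371 CPM in WT-drought and differed on the log2 scale by -0.29 ± 0.07 (SE, adjusted p = 0.0401), while *FNR1* had 1071, 1022 and 1064 CPM and -0.10 (adjusted p = 0.529). PHD6-drought and WT-drought libraries did not overlap, in either direction, for 32 of the 53 genes tested, against 28.4% of all genes. *LHCB1.2*, *PSAN* and *FNR2* were lower in PHD6-drought than in both PHD6-control and WT-drought, and these comparisons share the PHD6-drought libraries. The interaction test passed for none of them, with differences of -0.35, -0.31 and -0.27 (adjusted p = 0.524, 0.333 and 0.325).

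How many genes were lower depended on the fit and on single libraries. None was called with all 12 libraries fitted together, nor without WT-drought replicate 1 or replicate 3. Of all genes, 3.25, 0.92 and 1.69% were called lower in these runs. Without WT-drought replicate 2 there were 3, and 1 without PHD6-drought replicate 2 or replicate 3. Without PHD6-drought replicate 1, the library in which 52 members were lowest in their group, 8 were lower, against 6.19% of all genes, and 1 higher. DESeq2 gave 19 lower, against 5.88% of all genes.

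The upstream regions of *LHCB1.2* and *LHCB2.3* are set side by side, as both antenna genes were lower in PHD6-drought than in WT-drought and differ in these motifs. *LHCB1.2* is read from chr1:10473503-10473752 on the minus strand and *LHCB2.3* from chr3:10255656-10255905 on the plus strand, with capitals as above.
LHCB1.2: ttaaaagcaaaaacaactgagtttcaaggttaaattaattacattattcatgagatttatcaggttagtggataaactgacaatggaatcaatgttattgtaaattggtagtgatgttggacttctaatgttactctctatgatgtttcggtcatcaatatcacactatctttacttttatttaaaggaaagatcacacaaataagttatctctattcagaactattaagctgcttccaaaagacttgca
LHCB2.3: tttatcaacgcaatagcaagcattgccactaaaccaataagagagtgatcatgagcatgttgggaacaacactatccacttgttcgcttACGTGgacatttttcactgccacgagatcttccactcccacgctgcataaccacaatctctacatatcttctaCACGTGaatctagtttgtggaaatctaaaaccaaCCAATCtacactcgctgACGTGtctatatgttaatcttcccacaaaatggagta
*LHCB1.2* holds none of the 5 motifs, as is also the case for *FD1*, *FD2*, *FNR2*, *PSAN* and *PETE1*. The same holds for members called in no comparison, among them *LHCA2*, *PSAD2* and *PSBW*. *LHCB2.3* holds a G-box, 4 matches to ACGTG and a CCAATC. Each G-box reads as ACGTG on both strands and so counts as 2 matches to ACGTG. *PSBQ2*, one of the oxygen-evolving genes that fell with drought in *MtPHD6* plants, has the most matches of the set, with 2 G-boxes, 6 matches to ACGTG, an I-box and a CCAATC, at chr4:2673244-2673493 on the minus strand.
PSBQ2: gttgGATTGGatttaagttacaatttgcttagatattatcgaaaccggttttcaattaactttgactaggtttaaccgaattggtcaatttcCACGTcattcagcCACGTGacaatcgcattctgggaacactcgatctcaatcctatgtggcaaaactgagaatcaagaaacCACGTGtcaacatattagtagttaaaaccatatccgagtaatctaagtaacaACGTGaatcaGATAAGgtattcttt
Over the 54 genes, 11 held a G-box (20.4%, against 6.53% of 27048 protein-coding genes in the same window), 14 a CCAATC (25.9 against 10.2%), 12 an I-box (22.2 against 12.3%), 21 an ACGTG (38.9 against 22.9%) and 1 an evening element (1.85 against 2.36%). These shares describe the set and were not tested.

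The proportions of other paired copies, also by CPM per kilobase of exon, are given as the range of group means. *PSAD2* made up 27.7 to 29.7% of the PSAD pair in the group means, *PSAE2* 63.0 to 66.7% of PSAE, *PSAH2* 71.2 to 73.7% of PSAH and *PSBQ2* 36.2 to 38.3% of PSBQ. *FD1* made up 17.4 ± 0.75% of the ferredoxin pair in WT-control, 18.4 ± 0.95% in WT-drought, 17.3 ± 0.95% in PHD6-control and 20.3 ± 1.14% in PHD6-drought. The last of these ranged from 19.1 to 21.3%, above each PHD6-control library. For FNR the share of *FNR2* went down from 53.6 ± 1.27% in WT-control to 51.0 ± 0.57% in WT-drought and from 50.5 ± 0.65% in PHD6-control to 47.7 ± 1.54% in PHD6-drought, and the libraries of watered and droughted plants of a genotype did not overlap (n = 3 each). *LHCB4.3*, a copy of the minor antenna protein CP29, had 80.5, 62.0 and 86.1 CPM in WT-control, 87.2, 86.5 and 86.6 in WT-drought, 82.0, 97.7 and 86.9 in PHD6-control and 89.0, 100.2 and 103.7 in PHD6-drought, and was the member with the highest log2 fold change between genotypes both in watered plants and under drought (0.22 and 0.18).

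Genes that supply, assemble or regulate these complexes are counted against the shares of all genes called lower with drought, 12.7% in *MtPHD6* plants and 7.18% in WT plants. All 7 tested nuclear genes of the NDH complex, which returns electrons from ferredoxin to the plastoquinone pool, fell with drought in *MtPHD6* plants (median log2 fold change -0.53), and 3 of 7 fell in WT plants (median -0.38). *NDHM* fell in both, with -0.57 (adjusted p = 0.00518 from edgeR) and -0.47 (adjusted p = 0.0238). *NDF1* and *NDF2* fell in *MtPHD6* plants with -0.46 and -0.53. Of the chlorophyll synthesis genes, 15 of 23 fell with drought in *MtPHD6* plants and 1 of 23 in WT plants, while 5 of 23 were lower in PHD6-drought than in WT-drought, against 3.89% of all genes. The last count was 0 without any 1 of the WT-drought libraries or PHD6-drought replicate 2, 2 without PHD6-drought replicate 3 and 8 without PHD6-drought replicate 1. *CHLH*, the porphyrin-binding subunit of magnesium chelatase, had 827, 838 and 835 CPM in PHD6-control and 547, 594 and 606 CPM in PHD6-drought, a log2 fold change of -0.52 (adjusted p = 0.00310), *PORC*, a light-dependent protochlorophyllide reductase, had -0.53 (adjusted p = 0.00368) and *DVR*, the divinyl reductase, -0.60 (adjusted p = 0.00379). Without PHD6-control replicate 1 or 2, or PHD6-drought replicate 3, 4 of the 23 were called in *MtPHD6* plants, and 8 without PHD6-drought replicate 2. Without WT-control replicate 2, 12 were called in WT plants, and 0 without any other WT library. Of 14 genes for assembly, import and repair of the photosystems, 11 fell in *MtPHD6* plants and none in WT plants, among them *FTSH1*, a protease of photosystem II repair (-0.44), *HCF136*, an assembly factor of photosystem II (-0.49), and *CPSRP54*, which delivers antenna proteins to the thylakoid (-0.43). Without PHD6-control replicate 1 or 2, or PHD6-drought replicate 3, 6, 5 and 7 of the 14 were called in *MtPHD6* plants, and without WT-control replicate 2, 9 were called in WT plants. No gene of the NDH, chlorophyll synthesis or assembly lists passed the interaction test, so a difference between genotypes in their drought response was not shown. NDH genes numbered 6 or 7 without any 1 library in *MtPHD6* plants, and in WT plants 6 without WT-control replicate 2 and 0 without any other library.

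Of 9 genes for photoprotection and control of electron flow, 5 fell with drought in *MtPHD6* plants and 1 in WT plants. *PGRL1A*, of cyclic electron flow, had -0.54 and *NPQ1*, the violaxanthin de-epoxidase, -0.43 in *MtPHD6* plants. *ABA1*, the zeaxanthin epoxidase, was lower in PHD6-drought than in both PHD6-control (-0.45) and WT-drought (-0.51, adjusted p = 0.0315 from edgeR). The latter was not called without any 1 of the WT-drought libraries or without PHD6-drought replicate 3. Of 7 tested genes for early light-induced and LHC-like proteins, 5 fell in *MtPHD6* plants, among them *OHP1*, *SEP1* and *LIL3:2* (-0.52, -0.36 and -0.32), and 2 in WT plants. Of the 3 nuclear genes of the chloroplast ATP synthase, *ATPC1* and *ATPD* fell in *MtPHD6* plants (-0.30 and -0.43) and none passed in WT plants. No gene of these 3 lists passed the interaction test. Without PHD6-control replicate 1 or 2, 1 gene of photoprotection, 1 LHC-like gene and 0 ATP synthase genes were called in *MtPHD6* plants, and without WT-control replicate 2, 5, 6 and 3 were called in WT plants.

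**Figure D5:**
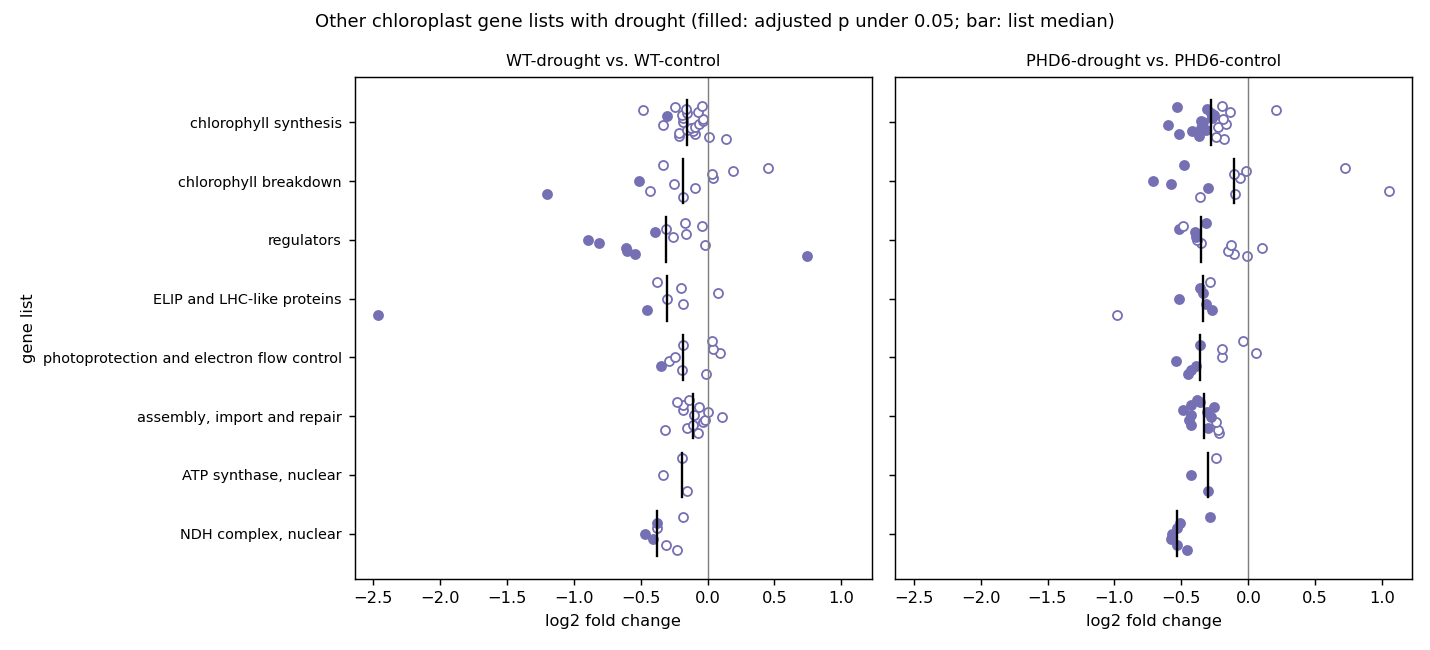
Log2 fold changes with drought of genes in 8 other lists of chloroplast genes, in WT plants on the left and *MtPHD6* plants on the right. Points are genes, filled where the adjusted p from edgeR was under 0.05, and vertical bars are list medians. All 7 tested NDH genes are filled on the right and 3 on the left; the far left point of the LHC-like list is *ELIP1*, at -2.46 in WT plants, whose level was at most 1.33 CPM in any library.

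Against the same shares of all genes, with drought in WT plants 6 of 13 regulators fell and 1 rose, while 5 of 13 fell in *MtPHD6* plants. These were 10 without WT-control replicate 2 and 2 without WT-drought replicate 3 in WT plants, and 3 without PHD6-control replicate 1 or 2 in *MtPHD6* plants. *GLK2*, a transcription factor that promotes photosynthesis genes, had 83.3, 68.2 and 73.8 CPM in WT-control and 48.7, 51.0 and 49.1 CPM in WT-drought with a log2 difference of -0.60 (adjusted p = 0.00164 from edgeR), and in *MtPHD6* plants it had -0.15 (adjusted p = 0.487), with an interaction of 0.45 that did not pass (adjusted p = 0.195). *SIG3*, a sigma factor of chloroplast transcription, fell in both genotypes, with -0.39 and -0.40. *GNC*, a GATA factor that promotes chlorophyll content, had 45.2, 37.5 and 46.0 CPM in WT-control and 25.4 to 30.9 CPM in WT-drought (log2 fold change -0.61, adjusted p = 0.00417), but was already low in PHD6-control at 24.81 to 32.37 CPM and had 27.7 to 34.7 CPM in PHD6-drought. Of the breakdown genes, 2 of 11 fell in WT plants (5 without WT-control replicate 2 and 1 without WT-drought replicate 2) and 4 of 11 in *MtPHD6* plants, among them *NYC1* and *NOL*, the chlorophyll b reductases, with -0.71 and -0.58 in *MtPHD6* plants. *CLH1*, a chlorophyllase, had 115.3 to 150 CPM in WT-control, 53.6 to 62.3 in WT-drought, 65.3 to 79.5 in PHD6-control and 61.1 to 81.2 in PHD6-drought.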

How the data were processed

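Messenger RNA of 12 leaf libraries was sequenced by the authors, aligned by HISAT2 (2.0.5), and reads were summarised over genes by featureCounts (1.5.0-p3), according to the submitters' processing notes. The raw counts deposited by the authors were used here. The genome build and the strand setting are not given in the sources used here, and positions come from TAIR10.1. Of 38082 entries, 2021 without a gene name (0.387 to 0.463% of counts) were left out, leaving 17839925 to 24717357 counts per library. Genes were kept with filterByExpr (minimum count 10), libraries were scaled by TMM, and each comparison of 6 libraries was fitted with the quasi-likelihood test of edgeR (4.0.16, R 4.3.3), with Benjamini-Hochberg adjustment over 19681 genes and a threshold of 0.05. CPM are after TMM scaling and SE is that of the fitted log2 fold change. The p-values weigh a difference against the spread between libraries labelled as biological replicates. The difference of drought responses was an interaction term over 12 libraries. Scripts were tested on simulated data.

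The members and gene lists were chosen with earlier results of these data known. Values per library are given for up to 5 called members of largest log2 fold change per comparison, for the member of highest level per kilobase in each complex and for paralogs that differed in call, and up to 3 genes of smallest p are named per other list; other members are named where a count or range is described. Plastid-encoded genes were not analysed here. Replicate numbers were checked for pairing. WT-control and WT-drought libraries of 1 number deviated together (r = 0.348, 0.148 and 0.142, each over 0.1), which comes from the data and not from the labels. No other comparison had all such values over 0.1. Libraries of unlike number reached r = 0.4 (PHD6-control replicate 2 and WT-control replicate 3), so these values do not show that samples were paired. Alternatives were DESeq2 size factors, upper-quartile scaling, library sizes without the members, DESeq2 (1.42.0), no filter, at least 1 CPM in all libraries, 1 fit of all 12 libraries, no organelle genes, a replicate block and leaving out each library. Tables, promoters and plots were made with Python 3.11.15, pandas 2.3.3 and matplotlib 3.10.9.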

Additional observations from a re-analysis of the deposited data

Results flagged for a closer look

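The drought response differed between genotypes by the interaction test of edgeR for 3 of the genes described. These were 1 of 53 members, 1 of 11 chlorophyll breakdown genes and 1 of 13 regulators. Of all 19681 genes tested, 1102 (5.6%) were called for a negative difference and 271 for a positive one. *PETE1* differed by -0.52 on the log2 scale (standard error 0.13, adjusted p = 0.0267), with 0.33 in WT and -0.19 in *MtPHD6* plants. *CLH1* differed by 1.1 (standard error 0.18, adjusted p = 0.00170): it fell with drought in WT plants (-1.20, adjusted p = 0.000214), had -0.10 (adjusted p = 0.610) in *MtPHD6* plants, and was lower in PHD6-control than in WT-control (-0.87, adjusted p = 0.00465). *GNC* differed by 0.71 (standard error 0.18, adjusted p = 0.0248), with -0.61 in WT plants, 0.10 in *MtPHD6* plants and -0.54 in PHD6-control against WT-control (adjusted p = 0.0428). The last call was lost with the replicate block and without any library of those groups except WT-control replicate 2, with an adjusted p of up to 0.163. The difference in *GNC* was called in 13 of 20 alternatives, not without WT-control replicate 1 or 3, WT-drought replicate 1 or 3, PHD6-control replicate 3, or PHD6-drought replicate 2 or 3, with an adjusted p of up to 0.0737.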

How the results depend on the processing

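No called value changed sign in any alternative, and 9 of 28 calls were made in every one. For drought in WT plants, 3 members were lower, against 7 with upper-quartile scaling (which called 2292 of 19681 genes lower, against 1413, and moved the median of all genes by -0.08), 6 with DESeq2 and 5 with all 12 libraries fitted together, and 1 was higher with DESeq2, with at least 1 CPM in all libraries and with all 12 libraries. DESeq2 called 7.66% of all genes lower for drought in WT plants, and the fit of all 12 libraries 8.59%. For PHD6-drought vs. WT-drought, 5 were lower, against 9 with upper-quartile scaling, 19 with DESeq2, 11 with no filter and 0 with all 12 libraries. Of all genes, 3.89% were called lower in the main fit, and 4.1, 5.88, 3.61 and 3.25% in these alternatives, in the same order. For drought in *MtPHD6* plants DESeq2 gave 29 in place of 19, against 13.2 and 12.7% of all genes. With the replicate block, drought in WT plants gave 5 lower and 1 higher, PHD6-drought vs. WT-drought 0 lower, the interaction 0 and drought in *MtPHD6* plants 16 lower. Of all genes, 8.31, 2.33, 5.01 and 11.7% were called lower in these runs, which for the interaction means a negative difference. In the first of these, libraries of the same number deviated together, which does not show that the samples were paired. In the others the libraries share only a number. Leaving out 1 library gave 0 to 30 lower and 0 to 1 higher for drought in WT plants, 9 to 23 lower in *MtPHD6* plants, 0 to 8 lower and 0 to 1 higher for PHD6-drought vs. WT-drought, and 0 to 1 for the interaction. Over these runs, the share of all genes called lower with drought went from 3.34 to 12% in WT plants and from 6.44 to 13.0% in *MtPHD6* plants. For PHD6-drought vs. WT-drought it went from 0.92 to 6.19%. The causes were not tested. With 3 libraries a group, the median standard error of members in watered plants was 0.16 on the log2 scale, which limits the changes that could be called.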
